A study of Arabidopsis thaliana with 8 samples.

Results

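The genes described here make fatty acids and seed oil. The 43 genes were chosen by name from knowledge of the pathway, by a rule that uses no measured value. Earlier results of these data were known when the choice was made. The genes cover the steps in order, from plastid pyruvate kinase and pyruvate dehydrogenase through acetyl-CoA carboxylase, acyl carrier proteins and fatty acid synthase. Desaturases, thioesterases, activation and elongation of the fatty acids, and oil assembly follow. All 43 are among the 34133 genes of the deposited table, all 43 were above 0 in all 8 libraries, and all 43 were among the 19719 genes with enough signal to be tested.

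Seeds of Arabidopsis thaliana store carbon as triacylglycerol, the storage oil. Inside plastids, pyruvate kinase and pyruvate dehydrogenase supply acetyl-CoA, acetyl-CoA carboxylase turns it into malonyl-CoA, and fatty acid synthase builds saturated chains on acyl carrier protein. The chains are desaturated, cut free by thioesterases, activated to acyl-CoA outside the stroma, desaturated further on phosphatidylcholine, elongated, and joined to glycerol in the endoplasmic reticulum. WRINKLED1 (WRI1) is a transcription factor that activates many of the plastid genes in the developing seed, and the endosperm, the nutritive tissue around the embryo, also makes oil.

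RNA came from endosperm dissected by laser capture at 6 days after pollination, with 8 libraries in 4 crosses of 2 libraries each. One parental line is Col-0, the wild type. The other is ein2-5, in which EIN2, the protein that passes the ethylene signal on from the receptors, is lost through mutation. The wild-type cross is Col-0 x Col-0, the reciprocal crosses are ein2-5 x Col-0, with a mutant mother, and Col-0 x ein2-5, with a mutant father, and in ein2-5 x ein2-5 both parents are mutant. Reading the first name as that of the mother is an assumption, since the labels leave this unsaid. The title speaks of EIN2 in relation to seed size and to the cellularization of the endosperm, and the crosses ask what differs with ein2-5 from either parent or from both. The mother plant and the seed coat have the mother's genotype, whereas the endosperm receives genomes from both parents. How many seeds or plants went into a library is not given in the labels, so the p-values reflect only the spread among these libraries, which may be technical.

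Some facts of the whole data set bear on the pathway genes. Levels are in FPKM, a fragment number divided by the length of the transcript and the size of the library, so they can be compared between genes. Relative sequencing depth, estimated from the steps of low FPKM values, ran from 0.544 in Col-0 x Col-0 replicate 1 to 1.617 in ein2-5 x ein2-5 replicate 2, a 2.97-fold range. The value of 1 fragment on a transcript of 1.5 kb was 0.42 to 1.26 FPKM. EIN2 was at 35.7 and 54.9 FPKM in the wild-type cross, 31.4 and 50.03 with ein2-5 from the father alone, 26.2 and 22.2 from the mother alone, and 19.7 and 23.7 from both parents, so the 4 libraries with an ein2-5 mother lay below the 4 with a Col-0 mother. The endosperm label was checked against 15 endosperm markers, of which 14 were above 0 in each library with summed levels of 1108 to 2184 FPKM. The 19 seed coat markers summed to 630 to 1769 FPKM and the 18 embryo markers to 115.5 to 211.8 FPKM. Of the seed coat markers 18 or 19 were above 0 in each library, so markers above 0 do not measure purity. What part of a level came from seed coat or embryo was not tested. In ein2-5 x ein2-5 the seed coat markers summed to 1769 and 1179 FPKM and the endosperm markers to 2184 and 1561 FPKM, against seed coat sums of 808.2 and 722.7 FPKM and endosperm sums of 1320 and 1108 FPKM in the wild-type cross.

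The oil genes were among the most abundant transcripts of these endosperm samples. The median gene of the 43 had a mean of 194.8 FPKM over the 8 libraries, against 17.08 FPKM for the median tested gene. Of the 43 genes, 33 had a mean of at least 100 FPKM, a level reached by 12.9% of all tested genes, and 20 were in the top 5% of tested genes, above 220.7 FPKM. They took up 0.827% to 0.984% of all FPKM in a library. Levels differed strongly along the pathway. Acyl carrier proteins (203.2 to 511.1 FPKM) and fatty acid synthase genes (171.3 to 426.7 FPKM) were uniformly high, whereas oil assembly genes (14.83 to 80.84 FPKM) were lower. The coefficient of variation over the 8 libraries had a median of 11.4% in the 43 genes, and of 11.5% in the 2504 other tested genes with a mean of at least 100 FPKM.

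**Figure D1:**
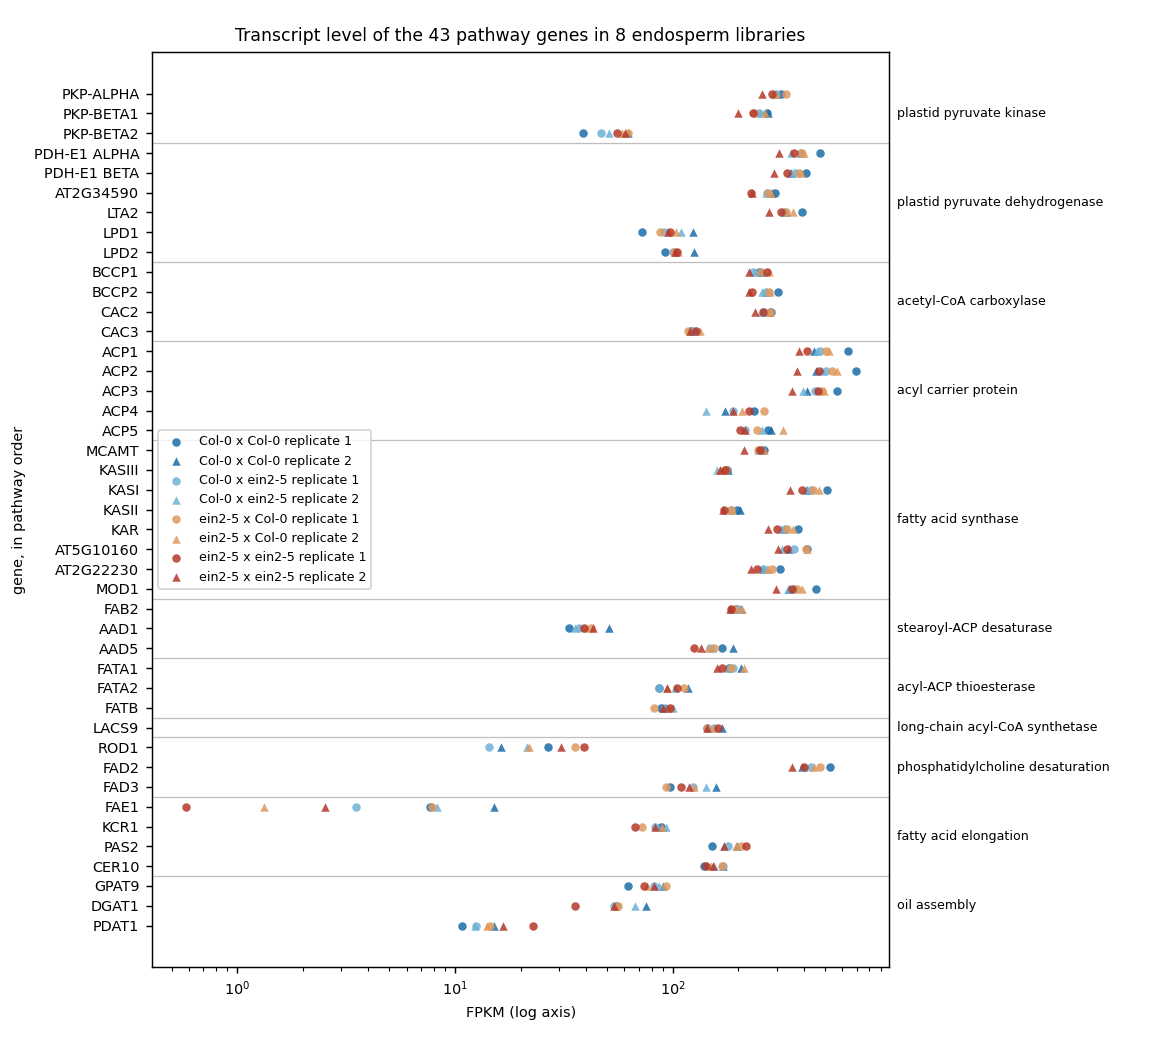
Level of each of the 43 genes in pathway order (rows), on a log axis in FPKM; each point is 1 of the 8 libraries, coloured by cross, with circles for replicate 1 and triangles for replicate 2. The acyl carrier protein and fatty acid synthase genes lie between 142.7 and 692.1 FPKM in all libraries, whereas FAE1 runs from 0.5797 to 15.11 FPKM.

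When both parents carried ein2-5, most of the pathway was slightly lower than in Col-0 x Col-0, but no gene of it passed the test. Of the 43 genes, 35 had a lower and 8 a higher fitted level in ein2-5 x ein2-5, with a median log2 change of -0.23 on the log2(FPKM + 1) scale. Over all 19719 tested genes the median was 0.12, with 38.0% lower and 61.6% higher, and over the 2504 other genes of at least 100 FPKM the median was -0.09 and 1627 were lower. The split moved with the scaling, since 39 of the 43 and 48.2% of all tested genes were lower after median-ratio scaling, and 37 and 53.2% after quantile normalization. None of the 43 was called by limma at an adjusted p under 0.05, where the smallest adjusted p among them was 0.343, and 8 had an unadjusted p under 0.05, all 8 of them lower. Calls were rare everywhere, with 2 of all tested genes (0.0101%) called and 2.13% lower and 8.44% higher at an unadjusted p under 0.05. Of the 2504 other genes of at least 100 FPKM, 146 were lower and 96 higher at such a p. In 23 of the 43 genes, or 53.5%, both ein2-5 x ein2-5 libraries lay below both Col-0 x Col-0 libraries, against 10.4% of all tested genes and 22.6% of the other genes of at least 100 FPKM. Both lay above in 2 genes, ROD1 and PDAT1, against 27.4% of all tested genes. Leaving out any 1 of these 4 libraries, so that 1 is set against 2, gave 23 to 32 lower genes against 17.2% to 32.6% of all tested genes and 30.5% to 57.8% of the other abundant ones, and 2 to 12 higher genes against 36.9% to 52.4% of all tested genes.

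Not all libraries contributed equally. Replicate 2 of ein2-5 x ein2-5, the most deeply sequenced library, held the lowest of the 8 values for 21 of the 43 genes and the highest for 0. Replicate 1 of Col-0 x Col-0, the shallowest, held the highest value for 15 and the lowest for 8, and replicate 2 the highest for 12. Without ein2-5 x ein2-5 replicate 2 the median of the 43 genes was -0.16 and 32 were lower, and leaving out wild-type replicate 1 gave a median of -0.16 with 40 lower. The count at an unadjusted p under 0.05 moved further, from 8 to 3 or 4 lower genes without any 1 of the other 7 libraries and to 15 lower and 2 higher without Col-0 x Col-0 replicate 2. In that last fit the genes with such a p among all tested went from 2086 to 3589, with 4.15% lower and 14.1% higher. With relative depth as a covariate the median was -0.17, with 38 lower and 13 lower genes at an unadjusted p under 0.05, against 6.08% of all tested genes. Seed coat and endosperm markers were higher in ein2-5 x ein2-5 (18 of 19 and 12 of 14 tested), with median log2 changes of 1.04 and 0.95. Of the embryo markers 9 of 14 tested were lower, with a median of -0.23, and they summed to 115.5 and 186.2 FPKM against 139.5 and 195.5 FPKM in the wild-type cross. With the seed coat marker level as a covariate the median of the 43 genes was -0.28 and 0 had an unadjusted p under 0.05, and the part of the endosperm and embryo markers was not tested. In such bulk samples fewer cells of a type and less RNA per cell cannot be told apart.

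**Figure D2:**
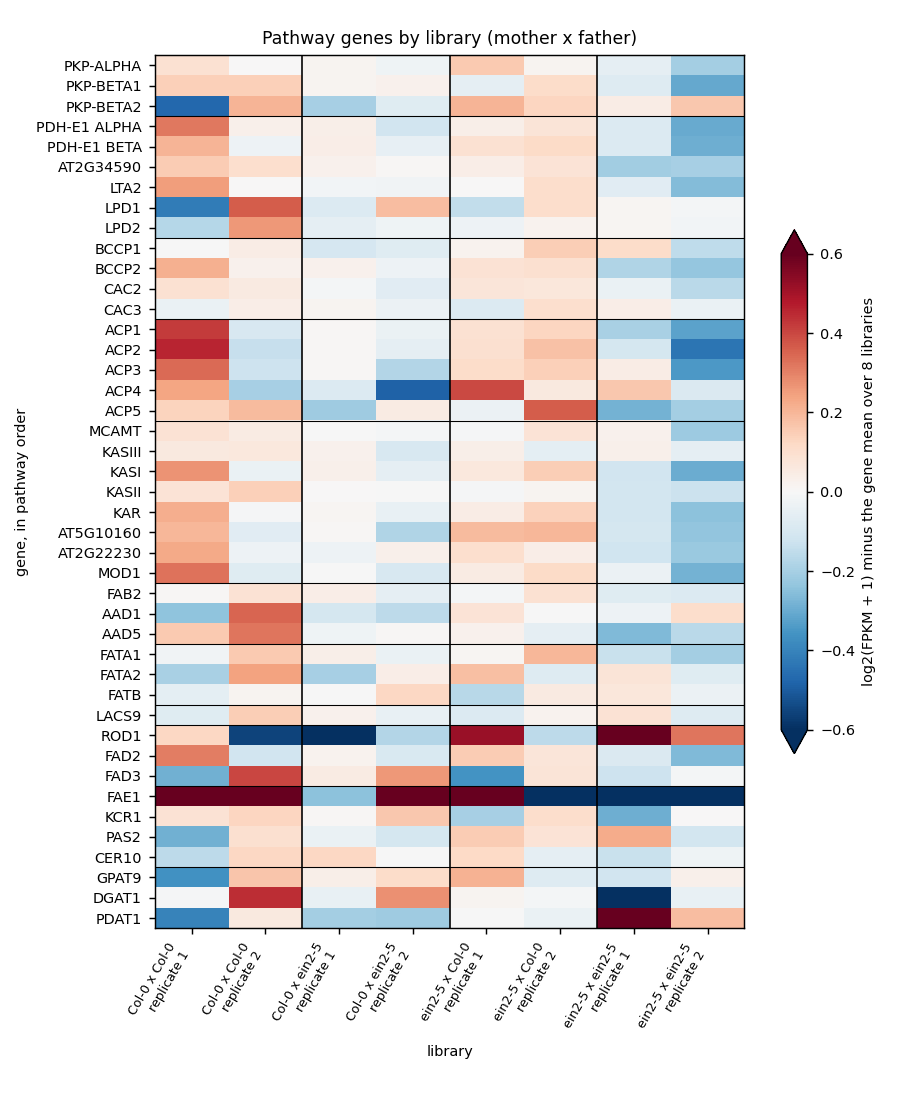
Deviation of each of the 43 genes (rows, pathway order) from its own mean over the 8 libraries (columns), in log2(FPKM + 1), red for above and blue for below, with colours saturating at the ends of the bar. The ein2-5 x ein2-5 columns are mostly blue down to the fatty acid synthase genes, replicate 2 more than replicate 1, while replicate 1 of Col-0 x Col-0 holds the darkest reds of the acyl carrier proteins.

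The pathway begins with plastid pyruvate kinase, which makes pyruvate from phosphoenolpyruvate. Its alpha subunit PKP-ALPHA was at 316 and 297 FPKM in the wild-type cross, 299 and 291 with ein2-5 from the father alone, 329.5 and 299 from the mother alone, and 285 and 257 from both parents. PKP-BETA1, the main beta subunit in seeds, was at 272 and 273, 249.5 and 251, 237 and 266, and 233 and 199 FPKM in the same order of crosses. Both ein2-5 x ein2-5 libraries were the lowest of the 8 for each of these genes. PKP-BETA1 had a log2 change of -0.34 ± 0.13 (SE) between the homozygous crosses, with a limma adjusted p of 0.445. The other beta subunit, PKP-BETA2, was far lower, at 38.6 and 62.0, 46.7 and 51.0, 62.1 and 58.8, and 55.5 and 60.2 FPKM. The homozygous crosses overlapped, whereas Col-0 x ein2-5 was below both crosses with a mutant mother. Its difference of 0.24 ± 0.22 had the opposite sign and a limma adjusted p of 0.712, and was -0.10 when wild-type replicate 1 was left out.

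Plastid pyruvate dehydrogenase makes acetyl-CoA from pyruvate. Its E1 alpha gene PDH-E1 ALPHA was the most abundant of the 6 genes of the step, at 474 and 388 FPKM in the wild-type cross, 389 and 351 with ein2-5 from the father alone, 390.0 and 402 from the mother alone, and 359 and 309 from both parents. The homozygous crosses did not overlap, and the fitted difference was -0.36 ± 0.16 (limma adjusted p of 0.472). E1 beta is encoded by PDH-E1 BETA, with a mean of 358 FPKM, and by AT2G34590, whose values were 296 and 285, 271 and 267, 273 and 282, and 229.7 and 232 FPKM. AT2G34590 had tight replicates in all 4 crosses, with ein2-5 x ein2-5 below all other libraries and Col-0 x Col-0 above all others, with a fitted difference of -0.33 ± 0.12 (limma adjusted p of 0.408). LTA2, the E2 subunit, averaged 332 FPKM, with a fitted difference of -0.29 ± 0.14. The E3 genes were lower and did not follow the rest. LPD1 was at 71.9 and 124 FPKM in the wild-type cross, 90.9 and 109.6 with ein2-5 from the father alone, 87.0 and 104 from the mother alone, and 97.1 and 95.5 from both parents, so all other crosses lay within the spread of the wild type. LPD2 averaged 104 FPKM with a difference of -0.05 ± 0.16.

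Acetyl-CoA carboxylase of the plastid makes malonyl-CoA, the first committed step. The biotin carrier subunits BCCP1 and BCCP2 had like levels, with means of 250.3 and 263 FPKM. BCCP1 was at 249 and 258, 233 and 238, 253 and 277, and 269.8 and 225 FPKM in the 4 crosses, with overlap between the homozygous crosses and Col-0 x ein2-5 below the wild-type cross and ein2-5 x Col-0. BCCP2 was at 304 and 267, 267 and 257, 278 and 280.1, and 232 and 223 FPKM, with both ein2-5 x ein2-5 libraries below the other 6. Its difference was -0.32 ± 0.13 (limma adjusted p of 0.439), against -0.04 ± 0.14 for BCCP1. BCCP2 overlaps a gene on the opposite strand, AT5G15520 with a mean of 175.102 FPKM, by 192 nt, and the labels do not say whether the libraries kept strand. The biotin carboxylase gene CAC2 was at 284 and 276, 264 and 253, 279 and 279, and 258 and 238 FPKM, with a difference of -0.17 ± 0.12. Libraries with an ein2-5 father ranged from 238 to 264 FPKM and those with a Col-0 father from 276 to 284 FPKM, so these groups of 4 did not overlap. CAC3, the carboxyltransferase alpha subunit, averaged 124 FPKM with a coefficient of variation of 4.25% over the 8 libraries and a difference of -0.00 ± 0.12. CAC3 shares 928 nt at 94.1% identity with AT2G38260, so fragments could have been split between them.

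Acyl carrier proteins hold the growing chain, and the 5 genes for them included the most abundant gene of the pathway, ACP2 with a mean of 511.1 FPKM. ACP1 was at 635 and 444 FPKM in the wild-type cross, 477 and 461 with ein2-5 from the father alone, 506 and 519 from the mother alone, and 414 and 379 from both parents. ACP2 was at 692 and 457, 507 and 485, 539 and 569, and 468 and 372 FPKM, and ACP3 at 569 and 413, 451 and 397, 485 and 496, and 464 and 354 FPKM. In all 3 genes Col-0 x Col-0 replicate 1 was the highest and ein2-5 x ein2-5 replicate 2 the lowest library, and for ACP1 both ein2-5 x ein2-5 libraries were below the other 6. The differences were -0.42 ± 0.18 for ACP1, -0.43 ± 0.22 for ACP2 and -0.26 ± 0.20 for ACP3, with limma adjusted p of 0.475, 0.528 and 0.678. ACP2 and ACP3 are 92.2% identical over 374 nt, so their split is uncertain. ACP1 and ACP5 have transcripts under 1000 nt. Other such short transcripts of at least 100 FPKM stood at 0.16 relative to their mean over the libraries (log2) in Col-0 x Col-0 replicate 1 and at -0.15 in replicate 2, and the part of transcript length in the spread of ACP1 and ACP5 was not tested.

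The other carrier genes had patterns of their own. ACP5 was at 273 and 284, 215 and 257, 243 and 319.9, and 204 and 216 FPKM, with a fitted difference of -0.41 ± 0.17 between the homozygous crosses (limma adjusted p of 0.455). ACP4, known as the predominant form of leaves, was at 236 and 174, 189 and 143, 264 and 208, and 224 and 188 FPKM. Its homozygous crosses overlapped, with a difference of 0.02 ± 0.22, whereas both ein2-5 x Col-0 libraries were above both Col-0 x ein2-5 libraries.

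Fatty acid synthase genes had 1 direction between the homozygous crosses, with a lower fitted level in ein2-5 x ein2-5 for all 8 and a median of -0.25, although 0 had an unadjusted p under 0.05. All but KASIII and KASII had a mean of at least 200 FPKM. Of the 1094 other tested genes at that level 84.5% were lower, with a median of -0.19. KASI, the condensing enzyme of most elongation cycles, was at 511 and 412 FPKM in the wild-type cross, 433 and 408 with ein2-5 from the father alone, 443 and 471 from the mother alone, and 391 and 345 from both parents. The ein2-5 x ein2-5 libraries were the lowest of the 8, and the difference was -0.32 ± 0.16 (limma adjusted p of 0.516). KASIII, which starts the chain, averaged 171 FPKM and had the smallest difference of the step, -0.07 ± 0.12. KASII, which makes the last plastid elongation, averaged 186 FPKM, with a fitted difference of -0.23 ± 0.11. The malonyl transferase MCAMT averaged 249 FPKM, the ketoacyl reductase KAR 326 FPKM and the enoyl reductase MOD1 364 FPKM, with differences of -0.16 ± 0.13, -0.28 ± 0.14 and -0.29 ± 0.17. The genes AT5G10160 and AT2G22230 are known to encode the hydroxyacyl dehydratase. AT5G10160 was at 413 and 343, 361 and 317, 410.0 and 413, and 334 and 305 FPKM, with ein2-5 x ein2-5 below Col-0 x Col-0 and ein2-5 x Col-0. AT2G22230 averaged 267 FPKM, with a fitted difference of -0.27 ± 0.14.

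Stearoyl-ACP desaturases place the first double bond. FAB2, the main one of the plant, was at 195 and 207 FPKM in the wild-type cross, 188 to 207 FPKM in the reciprocal crosses and 185 and 184 FPKM in ein2-5 x ein2-5, a narrow range in which the last were lowest. AAD5 was at 169 and 189.5 FPKM in the wild-type cross, 149 and 152 with ein2-5 from the father alone, 154 and 146 from the mother alone, and 126 and 136 from both parents. AAD5 thus lay in a graded order, with Col-0 x Col-0 above both reciprocal crosses, these at like levels, and ein2-5 x ein2-5 below them, and no library overlapped with the next level. AAD5 had the smallest p of the 43 genes, with a difference of -0.45 ± 0.12 and a limma adjusted p of 0.343. AAD1 was at 33.6 and 51.1, 37.1 and 35.7, 42.3 and 39.9, and 39.03 and 43.03 FPKM, with overlap between the homozygous crosses and a difference of -0.02 ± 0.21.

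Acyl-ACP thioesterases release the chains, FATA acting mostly on oleoyl and FATB on saturated chains. FATA1 was at 182 and 206, 189 and 179.5, 186 and 212, and 168 and 160.3 FPKM, with the ein2-5 x ein2-5 libraries below the other 6 and a difference of -0.24 ± 0.13. FATA2 was at 86.8 and 118, 86.6 and 102, 113 and 94.2, and 105 and 94.4 FPKM, and FATB at 88.7 and 93.4, 92.3 and 101, 82.3 and 96.0, and 96.8 and 90.1 FPKM. Both overlapped between crosses, with differences of -0.02 ± 0.19 and 0.04 ± 0.13. LACS9, an acyl-CoA synthetase of the plastid envelope, was at 144 and 168, 154 and 147, 144 and 154, and 161 and 144 FPKM, with a difference of -0.03 ± 0.13.

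On phosphatidylcholine, FAD2 and FAD3 add the second and the third double bond, and ROD1 exchanges head groups so that oleate can enter this lipid. FAD2 was at 528 and 393 FPKM in the wild-type cross, 432 and 399.8 with ein2-5 from the father alone, 473 and 447 from the mother alone, and 401 and 354 from both parents, with a difference of -0.27 ± 0.17. FAD3 was at 97.3 and 157, 124 and 143, 92.7 and 126, and 109 and 118 FPKM, with a difference of -0.12 ± 0.24. The homozygous crosses overlapped in both genes. ROD1 ran the other way, at 26.8 and 16.3, 14.3 and 21.5, 35.5 and 21.9, and 39.2 and 30.8 FPKM. The ein2-5 x ein2-5 libraries lay above both wild-type ones, and the difference was 0.70 ± 0.34 (limma adjusted p of 0.506). ROD1 rested on about 21 to 72 fragments per library.

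Elongation to very long chains was the step with the widest range. FAE1, the seed-specific condensing enzyme of erucic and eicosenoic acid synthesis, was at 7.66 and 15.1 FPKM in the wild-type cross, 3.51 and 8.24 with ein2-5 from the father alone, 7.82 and 1.32 from the mother alone, and 0.580 and 2.54 from both parents. The homozygous crosses did not overlap, and the difference of -2.32 ± 0.74 was the largest of the 43, with a limma adjusted p of 0.393. FAE1 was also the rarest of the 43, on about 1 to 34 fragments per library, and its replicates differed up to several-fold within a cross. The partners of FAE1 in the elongation cycle also act in other tissues. The reductase KCR1 averaged 83.3 FPKM, with a fitted difference of -0.26 ± 0.16, and the enoyl reductase CER10 averaged 156 FPKM, with a fitted difference of -0.06 ± 0.15. The dehydratase PAS2 was at 152 and 198, 180.0 and 172, 206 and 196, and 216 and 171 FPKM, with overlap between the homozygous crosses and a difference of 0.15 ± 0.17.

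Oil assembly genes were low beside most of the pathway, though GPAT9 lay above 84% of tested genes, DGAT1 above 77.7% and PDAT1 above 46.5%. GPAT9, which acylates glycerol-3-phosphate, was at 62.3 and 90.3, 82.2 and 86.7, 92.9 and 76.1, and 74.1 and 82.1 FPKM, with a difference of 0.06 ± 0.20. That sign was not stable, since GPAT9 was at -0.05 after median-ratio scaling and -0.05 after quantile normalization. DGAT1 and PDAT1 make triacylglycerol by different routes, DGAT1 from acyl-CoA and PDAT1 from a phospholipid. DGAT1 was at 55.1 and 75.7 FPKM in the wild-type cross, 53.7 and 67.3 with ein2-5 from the father alone, 56.1 and 55.0 from the mother alone, and 35.4 and 53.7 from both parents. PDAT1 was at 10.8 and 15.1, 12.5 and 12.4, 14.5 and 14.1, and 22.8 and 16.6 FPKM. The ein2-5 x ein2-5 libraries were below the wild type for DGAT1 and above all other 6 libraries for PDAT1, with differences of -0.56 ± 0.24 and 0.57 ± 0.26 (limma adjusted p of 0.472 and 0.490). Replicate 1 of ein2-5 x ein2-5 was the lowest library for DGAT1 and the highest for PDAT1.

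The split by direction went with the level, among the 43 genes as among all tested genes. Of the 21 genes with a mean of at least 200 FPKM, 20 were lower in ein2-5 x ein2-5 than in the wild-type cross, at a median of -0.28, the exception being ACP4. Of the 22 genes under 200 FPKM, 15 were lower, with a median of -0.04. Among the other tested genes 84.5% of the 1094 with a mean of at least 200 FPKM were lower, with a median of -0.19. Under that level 35.1% were lower, with a median of 0.14. In the part of these at 50 to 200 FPKM 41.4% were lower, with a median of 0.05. Both ein2-5 x ein2-5 libraries were below all other 6 libraries in 14 of the 43 genes, or 32.6%, against 3.01% of all tested genes and 12.3% of the other genes of at least 100 FPKM. They are PKP-ALPHA, PKP-BETA1, PDH-E1 BETA, AT2G34590, LTA2, BCCP2, ACP1, KASI, KASII, KAR, AT2G22230, FAB2, AAD5 and FATA1, all among the 32 genes of the steps that take place in the plastid. Pathway genes outside these steps were mostly less abundant, and the parts of level and plastid step were not tested. In 171 of the 1094 other tested genes of at least 200 FPKM both ein2-5 x ein2-5 libraries were below the other 6. The same held in 408 of the 18582 under that level. Without ein2-5 x ein2-5 replicate 1 the count among the 43 genes was 23, against 7.32% of all tested genes and 36.8% of the other abundant genes. Without replicate 2 of that cross it was 18, against 15.3% and 21.4%, and without any other library it was 14 to 17, against 3.35% to 4.41% and 12.9% to 17.5%. PDAT1 was above all 6 others, against 11.2% of all tested genes.

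**Figure D3:**
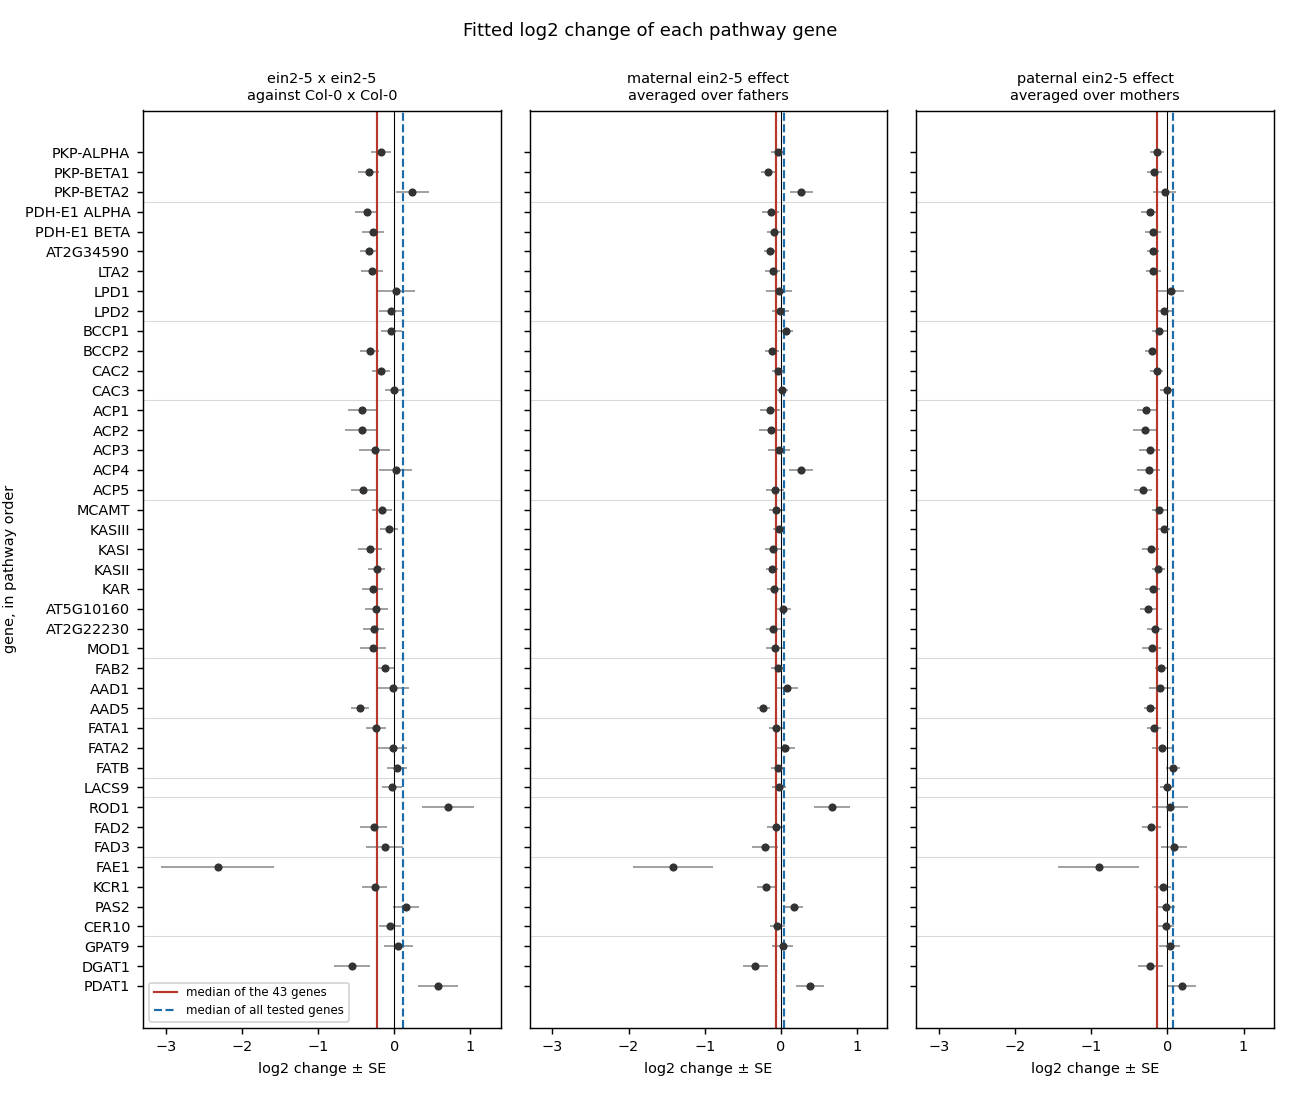
Fitted log2 change ± SE of each of the 43 genes (rows, pathway order) in 3 comparisons, on 1 scale; red lines are the median of the 43 genes and dashed blue lines that of all tested genes. In the left panel 35 of 43 points lie below 0, FAE1 farthest at -2.32, and the red line stands at -0.23 against 0.12 for all tested genes.

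With ein2-5 from 1 parent the medians lay nearer to 0, and each of these comparisons shares the Col-0 x Col-0 libraries with the comparison above. In ein2-5 x Col-0 the median log2 change of the 43 genes from Col-0 x Col-0 was -0.01 (0.02 over all tested genes), with 18 higher and 25 lower against 53.5% and 45.8% of all tested genes. The split was 11 and 32 after median-ratio scaling and 8 and 35 after quantile normalization. Without such scaling 39.2% of the other genes of at least 100 FPKM were lower, with a median of 0.03. No member was called, as in all tested genes (0.00%), and 0 members had an unadjusted p under 0.05, against 2.56% higher and 1.44% lower of all tested genes. Both mutant libraries lay below both wild-type ones in 5 genes, or 11.6%, against 12.5% of all tested genes, so the share was at the background, and above in 0 against 15.0%. Leaving out any 1 of the 4 libraries sets 1 against 2. It gave 7 to 19 lower genes against 23.9% to 39.5% of all tested genes. The share was 17.3% to 46.1% of the other genes of at least 100 FPKM. Without Col-0 x Col-0 replicate 2 it was 46.1%, beside 19 of the 43 genes. AAD5 had the smallest p in this comparison, at -0.25 ± 0.12 (limma adjusted p of 0.996), followed by FAE1 at -1.38 ± 0.74. PKP-BETA2 was highest by p among the genes above 0, at 0.30 ± 0.22 (limma adjusted p of 0.996).

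In Col-0 x ein2-5 the median was -0.11 (0.06 over all tested genes). Here 37 of the 43 genes were lower and 6 higher than in Col-0 x Col-0, against 41.2% and 58.2% of all tested genes. Among the other genes of at least 100 FPKM 62.1% were lower, with a median of -0.05. No gene was called here either (0.00% of all tested genes), and 0 members had an unadjusted p under 0.05, against 2.18% higher and 0.740% lower of all tested genes. The libraries did not overlap in 10 lower genes, or 23.3%, against 9.22% of all tested genes and 12.4% of the other genes of at least 100 FPKM, and in 0 higher genes against 16.8%. Leaving out any 1 of the 4 libraries gave 15 to 25 lower genes against 19.0% to 37.6% of all tested genes. The share was 18.7% to 55.2% of the other genes of at least 100 FPKM. Without Col-0 x Col-0 replicate 2 it was 55.2%, beside 25 of the 43 genes. The 10 were KASIII, KASII, MCAMT, AT2G34590, AAD5, LTA2, BCCP1, ACP5, CAC2 and PKP-BETA1. Again AAD5 had the smallest p, at -0.25 ± 0.12 with a limma adjusted p of 1, and ACP5 followed at -0.24 ± 0.17. GPAT9 led those above 0, at 0.17 ± 0.20, and was at -0.10 without Col-0 x Col-0 replicate 1.

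The reciprocal crosses share no library and were compared directly. The median of the 43 genes was 0.09 higher in ein2-5 x Col-0 than in Col-0 x ein2-5 (-0.02 over all tested genes, 0.08 over the other genes of at least 100 FPKM), with 33 genes higher and 10 lower against 46.0% and 53.5% of all tested genes. Among the other genes of at least 100 FPKM 1725 of 2504 were higher. The direction depends on the scaling, since after quantile normalization the median of the 43 genes was -0.01, with 17 higher and 26 lower. The libraries did not overlap in 23 higher genes, or 53.5%, against 16.1% of all tested genes and 36.1% of the other genes of at least 100 FPKM, and in 0 lower genes against 19.4%. None was called (0.00% of all tested genes), and ACP4 alone had an unadjusted p under 0.05, against 1.13% higher and 1.89% lower of all tested genes. ACP4 had 264 and 208 FPKM against 189 and 143 FPKM and a difference of 0.51 ± 0.22 (limma adjusted p of 1). ROD1 and AT5G10160 followed at 0.64 ± 0.34 and 0.28 ± 0.15, and FAD3 had the smallest p of the lower genes at -0.30 ± 0.24 (limma adjusted p of 1).

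Averaging over the genotype of the other parent uses all 8 libraries. The maternal ein2-5 effect had a median of -0.06 over the 43 genes (0.04 over all tested genes), with 32 lower and 11 higher against 43.3% and 56.7% of all tested genes. Among the other genes of at least 100 FPKM 52.7% were lower, with a median of -0.0075. None of the 43 was called (0.00% of all tested genes), and 3 of them had an unadjusted p under 0.05, against 5.01% higher and 2.08% lower of all tested genes. These were ROD1 at 0.67 ± 0.24, FAE1 at -1.42 ± 0.53 and AAD5 at -0.23 ± 0.09, each with a limma adjusted p of 0.693. PDAT1 came next among the higher genes, at 0.38 ± 0.18 (limma adjusted p of 0.735), and DGAT1 among the lower, at -0.33 ± 0.17 (limma adjusted p of 0.737). In 0 of the 43 genes did the 4 libraries with an ein2-5 mother lie all above or all below the 4 with a Col-0 mother, against 2.26% above and 1.19% below among all tested genes.

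The paternal ein2-5 effect had a median of -0.14 (0.08 over all tested genes, -0.08 over the other genes of at least 100 FPKM), with 37 lower and 6 higher against 37.4% and 62.6% of all tested genes. Among the other genes of at least 100 FPKM 71.6% were lower. Again none of the 43 was called (0.00% of all tested genes). An unadjusted p under 0.05 was found for 4 genes, all lower, against 1.03% lower and 5.05% higher of all tested genes. Of the 2504 other genes of at least 100 FPKM, 70 were lower and 41 higher at such a p. The 4 genes were ACP5 at -0.33 ± 0.12, AAD5 at -0.22 ± 0.09, AT5G10160 at -0.26 ± 0.11 and BCCP2 at -0.21 ± 0.09, each with a limma adjusted p of 0.787. Without Col-0 x Col-0 replicate 2 this count was 15, against 3.84% of all tested genes, and without any other single library it was 0 to 3, against 0.492% to 2.26%. The 4 libraries with an ein2-5 father were all below the 4 with a Col-0 father in AT2G34590, LTA2 and CAC2, or 6.98% of the 43 genes, against 0.720% of all tested genes and 2.72% of the other genes of at least 100 FPKM. In 0 genes were they all above, against 2.66% of all tested genes. The 6 genes with a higher fitted level were spread over 4 steps, with 2 in phosphatidylcholine desaturation, 2 in oil assembly, 1 in pyruvate dehydrogenase and 1 among the thioesterases. Whether the maternal and the paternal effect of a gene differ from each other was tested by the comparison of the reciprocal crosses above.

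The interaction is the change from a mutant father under a mutant mother minus that under a wild-type mother. Its median was -0.07 over the 43 genes (0.02 over all tested genes, -0.09 over the other genes of at least 100 FPKM), with 32 below 0 and 11 above against 48.3% and 51.7% of all tested genes. Among the other genes of at least 100 FPKM 69.9% were below 0. After quantile normalization the split of the 43 genes was 22 and 21. No gene was called (0.00% of all tested genes) and 0 members had an unadjusted p under 0.05, against 2.04% higher and 1.32% lower of all tested genes. The smallest p was that of PDAT1 at 0.46 ± 0.37 (limma adjusted p of 1), whose 2 ein2-5 x ein2-5 libraries stood apart from the other 6, and FATA1 had the smallest p of the genes below 0 at -0.20 ± 0.19 (limma adjusted p of 1).

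The pathway genes were set beside 53 other genes of lipid metabolism and its regulation, of which 52 were tested and LPAT3 was listed at 0 in all libraries. Between the homozygous crosses 28 of these were higher and 24 lower in ein2-5 x ein2-5, with a median of 0.04. Most of the 52 had a mean under 200 FPKM. Those above it, PPT1, EMB3003, BADC2, ACBP6, WRI1 and LEC1, all had a lower fitted level in ein2-5 x ein2-5. The part of level in this split was not tested. None of the 52 was called, and an unadjusted p under 0.05 was found for 3 higher genes and 1 lower gene. By step, the most abundant were the phosphoenolpyruvate importer PPT1 (332 FPKM, difference -0.16 ± 0.14), the pyruvate dehydrogenase E2 gene EMB3003 (297 FPKM, -0.10 ± 0.14) and the acetyl-CoA carboxylase inhibitor gene BADC2 (242 FPKM, -0.02 ± 0.12). The acyl-CoA binding protein ACBP6 was at 533 FPKM (-0.31 ± 0.24), the plastid desaturase FAD6 at 85.2 FPKM (0.04 ± 0.13), DGAT2 at 96.7 FPKM (0.14 ± 0.18) and the oil lipase SDP1 at 7.76 FPKM (0.27 ± 0.32). The 4 other acyl-ACP desaturases all had a lower fitted level in ein2-5 x ein2-5, with overlapping libraries and 0 at an unadjusted p under 0.05. Of these AAD2 was the most abundant, at 22.3 FPKM (-0.41 ± 0.34), though it shares 1107 nt at 94.2% identity with AAD4.

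Regulators of seed oil showed no common direction, with 6 of 12 higher and 6 lower. WRI1 was at 207 and 210.0 FPKM in the wild-type cross, 217 and 202 with ein2-5 from the father alone, 195 and 197 from the mother alone, and 208 and 179 from both parents. The homozygous crosses overlapped, and the difference of WRI1 was -0.11 ± 0.13 (limma adjusted p of 0.763). LEC1, a master regulator of embryo and endosperm development, was the most abundant at 408 FPKM, with a difference of -0.21 ± 0.15 (limma adjusted p of 0.660). WRI3, a relative of WRI1, was at 4.66 and 6.56, 9.15 and 8.79, 12.8 and 12.2, and 14.01 and 12.36 FPKM. All 4 libraries with an ein2-5 mother were above the 4 with a Col-0 mother, as in 2.26% of all tested genes, with a difference between the homozygous crosses of 1.11 ± 0.27 (limma adjusted p of 0.334). WRI3 rested on about 4 to 33 fragments per library.

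MYB115 is known with MYB118 as an endosperm regulator that activates AAD2 and AAD3, the desaturases of omega-7 fatty acids. MYB115 was at 26.9 and 29.8 FPKM in the wild-type cross, 21.2 and 31.4 with ein2-5 from the father alone, 15.7 and 15.3 from the mother alone, and 12.6 and 19.4 from both parents. The 4 libraries with an ein2-5 mother were below the 4 with a Col-0 mother, as in 1.19% of all tested genes, with a maternal effect of -0.76 ± 0.19 (limma adjusted p of 0.693). AAD3 was at 8.06 and 15.5, 7.91 and 12.02, 5.17 and 4.87, and 2.85 and 8.45 FPKM, with ein2-5 x ein2-5 replicate 2 above 2 of the 4 libraries with a Col-0 mother and a maternal effect of -0.93 ± 0.36 (limma adjusted p of 0.693). AAD2 was at 19.0 and 34.6, 25.1 and 25.1, 17.4 and 17.6, and 14.1 and 25.6 FPKM, and its maternal groups overlapped. MYB118 was at 72.3 and 95.3, 80.2 and 89.8, 68.6 and 74.0, and 77.7 and 90.2 FPKM. Its maternal groups also overlapped, and its difference between the homozygous crosses was 0.01 ± 0.17 (limma adjusted p of 0.987). MYB115 rested on about 20 to 65 fragments per library and AAD3 on about 5 to 40. The remaining genes singled out by p between the homozygous crosses were LPCAT1, which exchanges acyl groups on phosphatidylcholine (0.61 ± 0.21), and the acyl-CoA synthetase LACS1 (0.96 ± 0.39), both higher, and the plastid enolase ENO1 (-0.22 ± 0.12), lower, with limma adjusted p of 0.408, 0.454 and 0.569.

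**Figure D4:**
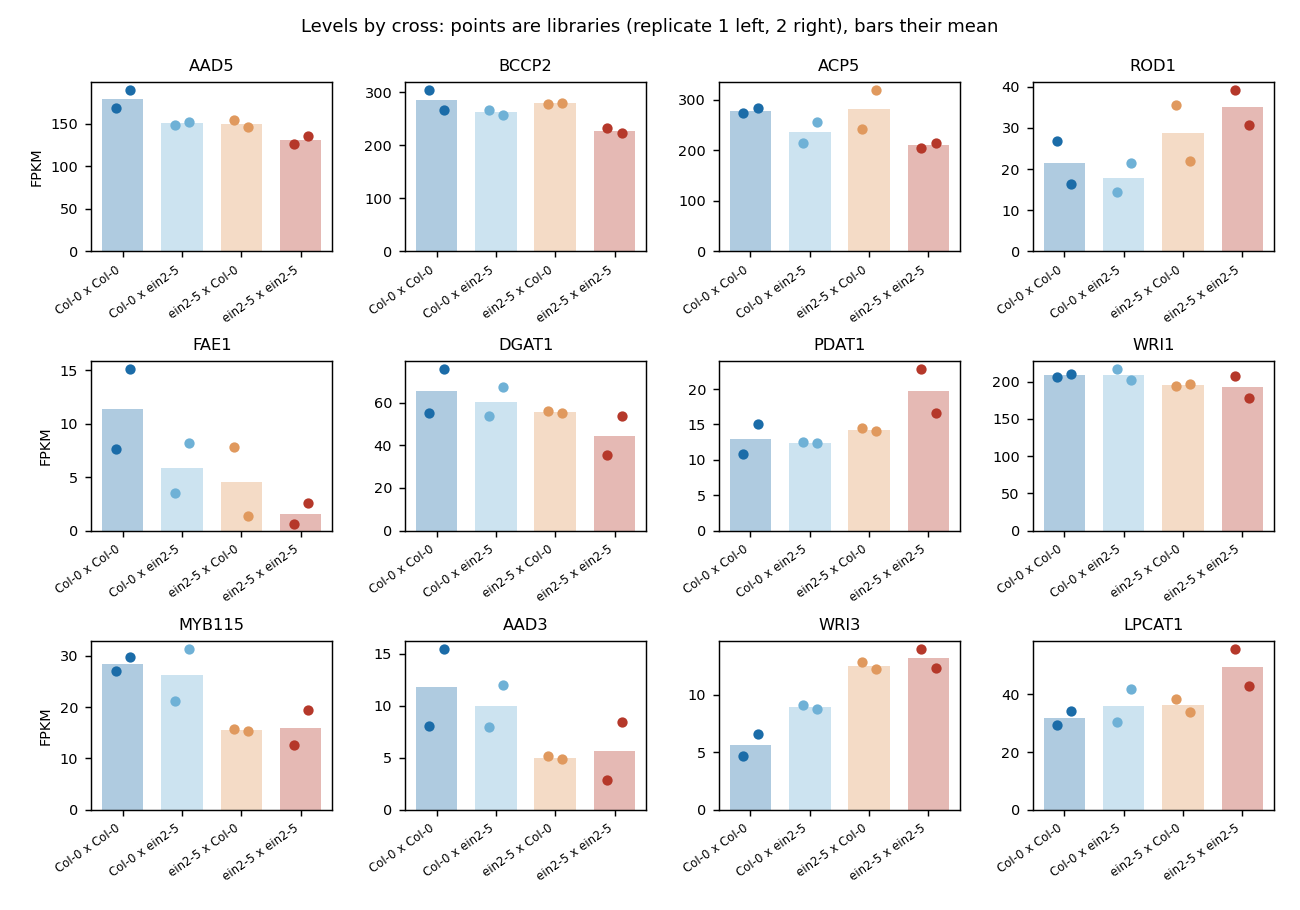
FPKM of 12 genes by cross, with 1 point per library (replicate 1 left, replicate 2 right) and bars for the mean of the 2 libraries; each panel starts at 0 and has its own scale. AAD5 goes from 169 and 189.5 FPKM in the wild type, through lower and like levels in both reciprocal crosses, to 126 and 136 FPKM in ein2-5 x ein2-5. MYB115 and WRI3 split by the mother, and WRI1 stays between 179 and 217 FPKM.

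WRI1 is known to bind the AW-box, written as CNTNG and CG with 7 free bases between them, where N is any base. Both strands of the 300 bases from 250 before to 50 after each gene start were searched for it in the RefSeq annotation of the TAIR10.1 assembly. A match was found in 8 of the 43 genes, or 18.6%, against 3261 of 27443 protein-coding genes, or 11.9%, and 12.1% of the tested ones. The windows of these 8 genes are shown because they hold a match. All but LACS9 belong to the plastid steps. The 8 include genes with and genes without overlap between the homozygous crosses. Capitals mark the fixed letters of the motif, and a match is a description of these letters, not a binding site.
PDH-E1 ALPHA: gaaaaaaaCaTtGgtgttaaCGaagaaggg
PDH-E1 BETA: catgtttaCaTtGttttcatCGaactcatg
LACS9: ccaattctCaTtGcacaaaaCGctcttatt
AT2G22230: acacaaacCtTtGtactctcCGctc
CAC3: aggagtcaCgTgGgcacgtgCGagagagca
ACP1: ttcacgctCtTtGtacactcCGccctctct
LPD2: catctccgCtTtGatatctcCGcctccgct
ACP5: ttcacgctCcTtGaacaatcCGccatctct

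The windows are printed 5′ to 3′ on the strand that holds the motif, which is the gene's own strand except for PDH-E1 BETA and LACS9. On chromosome 1 they are chr1:49365-49394 (minus strand) for PDH-E1 ALPHA, chr1:10586662-10586691 (plus strand) for PDH-E1 BETA and chr1:29152522-29152551 (plus strand) for LACS9. On chromosome 2 they are chr2:9449955-9449979 (plus strand) for AT2G22230, which ends with the searched region, and chr2:15917026-15917055 (plus strand) for CAC3. The others are chr3:1392928-1392957 (minus strand) for ACP1, chr4:9157219-9157248 (minus strand) for LPD2 and chr5:9571139-9571168 (plus strand) for ACP5. Between the homozygous crosses, PDH-E1 ALPHA, PDH-E1 BETA, AT2G22230, ACP1 and ACP5 had both ein2-5 x ein2-5 libraries below both Col-0 x Col-0 libraries, whereas LACS9, CAC3 and LPD2 overlapped. These 5 of 8 stand beside 18 of the 35 genes without a match. The other 35 genes, BCCP2 and PKP-BETA1 among them, held no match, which says only that these letters are not in this window.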

How the data were processed

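The deposited table holds FPKM values computed by the authors for 34133 genes in 8 endosperm libraries. The submitters' processing notes name the build TAIR10 and the tools Cufflinks 2.2.1, SAMtools 1.5 and TopHat2 2.1.1. Their options, any filter and the strand setting are not given in the sources used here. FPKM summed to 965922 to 1068714 per library, and 0 sample columns were left unused.

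The values were analysed as log2(FPKM + 1), with a pseudocount of 1, which understates differences of genes near 1 FPKM. A gene was tested if 2 or more libraries had 1 FPKM or more, and 11790 genes were at 0 in all libraries. The 4 cross means were fitted by limma 3.58.1 under R 4.3.3, and moderated two-sided tests let the prior variance follow the mean level, with 4 residual and 3.72 prior degrees of freedom. P-values were adjusted by Benjamini-Hochberg over all 19719 genes in each of 7 comparisons, and the threshold for a call was an adjusted p of 0.05. The script was tested on simulated data.

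Read counts were not used, and depth is an estimate. Of 511 ratios between low values of a gene, in which transcript length cancels, 96.9% were whole within 0.06, against 12% by chance. With a length correction of 300 nt, only 53.0% of 1049 low values were themselves whole multiples of the estimated step. Such depths cover counting error only.

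Names, transcript lengths and sequences came from RefSeq TAIR10.1, which matched 31416 of the identifiers and all 43 pathway genes. Identity between transcripts was measured with blastn 2.17.0, from 90% over 200 nt. The 43 genes and all other lists were chosen with earlier results of these data known. Named genes are any called, the 5 per direction with the smallest p in each comparison, and in the other lipid genes the most abundant of each step and up to 3 per direction. MYB118, AAD3 in the maternal effect, EIN2 and genes listed for lack of overlap were named outside this rule, after their values were seen. Other settings covered the pseudocount, the filter, scaling, the variance model, covariates, a replicate block and leaving out each library.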

Additional observations from a re-analysis of the deposited data

How the results depend on the processing

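None of the 43 genes was called under any of the 20 other fits, of which 19 gave all 7 comparisons and the fit of only the crosses compared gave 4. Between ein2-5 x ein2-5 and Col-0 x Col-0 the median of the 43 genes stayed negative in all of them, with 29 to 40 genes lower. Median-ratio scaling moved the median of all tested genes from 0.12 to 0.02 there and quantile normalization to -0.03, and the share of all tested genes that was lower from 38.0% to 48.2% and 53.2%.

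The medians that moved by more than the spread between replicates follow. Between the homozygous crosses the median was -0.34 with median-ratio scaling, -0.11 with quantile normalization, -0.17 with depth as a covariate, -0.28 with the seed coat markers as a covariate, and -0.34 with the transcript-length trend removed, a setting chosen after seeing the data. With ein2-5 from the mother alone it was -0.064 with quantile normalization and -0.058 without the length trend. With ein2-5 from the father alone it was -0.16 with median-ratio scaling, -0.074 with quantile normalization and -0.18 without the length trend. Between the reciprocal crosses it was -0.0097 with quantile normalization and 0.062 with depth. The maternal median was -0.10 with median-ratio scaling, -0.086 with the seed coat markers and -0.10 without the length trend. The paternal median was -0.21, -0.074, -0.11, -0.17 and -0.24 under median-ratio scaling, quantile normalization, depth, seed coat markers and length. The interaction median was -0.014 with quantile normalization.

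Leaving out each library in turn gave medians of -0.25 to -0.16 between the homozygous crosses, -0.060 to -0.0014 in ein2-5 x Col-0, -0.084 to -0.018 for the maternal effect, -0.17 to -0.13 for the paternal effect and -0.13 to -0.045 for the interaction. An arm then has 1 library, assumed to vary like the others. Counts of all genes called between the homozygous crosses were 2, and 0 with a pseudocount of 0.1, with a filter of FPKM of at least 5, with depth, with seed coat markers and with the replicate block. They were 4 with median-ratio scaling, 11 without the variance trend, 1 from the crosses compared alone and 0 to 33 with a library left out. Elsewhere, where the count was 0, ein2-5 x Col-0 gave 1 (pseudocount of 0.1), 3 (no trend), 2 (depth) and 1 (length), Col-0 x ein2-5 gave 1 (no trend) and 1 (length), the reciprocal crosses 1 (pseudocount of 0.1), 4 (no trend) and 1 (depth), and the maternal effect 1 (no trend). With a library left out these ranged over 0 to 12, 0 to 16, 0 to 5 and 0 to 13, and over 0 to 10 and 0 to 3 for the paternal effect and the interaction. The replicate block gave 9 lower pathway genes at an unadjusted p under 0.05 between the homozygous crosses and changed no call among the 43. Same-numbered libraries did not all deviate together (r of 0.0087 to 0.136), so the numbers were not read as pairs.

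Signs of named genes turned as follows, the largest difference among them being that of FAE1 between the reciprocal crosses (-0.51). Between the homozygous crosses GPAT9 was at -0.055 (median-ratio), -0.045 (quantile), -0.15 (depth), -0.29 (seed coat) and -0.075 (length), PKP-BETA2 at -0.0048 (depth) and PAS2 at -0.34 (seed coat). In Col-0 x ein2-5 FAD3 was at -0.028 and LPD1 at -0.059 (depth). In the paternal effect LPD1 was at -0.018 and GPAT9 at -0.037 (median-ratio), GPAT9 at -0.018 (quantile), FAD3 at -0.077, LPD1 at -0.12 and GPAT9 at -0.11 (depth), PDAT1 at -0.084 and GPAT9 at -0.15 (seed coat), and FATB at -0.031, LPD1 at -0.058 and GPAT9 at -0.040 (length). In the maternal effect ACP4 was at -0.0040 and PAS2 at -0.074 (seed coat), and KASIII was at -0.021 in the interaction (seed coat). With a library left out, between the homozygous crosses PKP-BETA2 ranged from -0.10 to 0.57, PAS2 from -0.040 to 0.34 and GPAT9 from -0.21 to 0.32. In ein2-5 x Col-0 PKP-BETA2 ranged from -0.037 to 0.64, ACP4 from -0.0084 to 0.43, AT5G10160 from -0.0032 to 0.26 and DGAT1 from -0.44 to 0.010. In Col-0 x ein2-5 the ranges were -0.096 to 0.43 for GPAT9, -0.061 to 0.22 for CER10, -0.24 to 0.44 for FAD3 and -0.31 to 0.47 for LPD1. Between the reciprocal crosses they were -1.48 to 0.45 for FAE1, -0.27 to 0.049 for DGAT1 and -0.28 to 0.022 for KCR1. For the paternal effect they were -0.086 to 0.26 for FAD3, -0.15 to 0.24 for LPD1 and -0.10 to 0.16 for GPAT9, and for the interaction -0.12 to 0.48 for AAD1 and -0.029 to 0.19 for LACS9. The cause was not tested in any of these. Depth limits FAE1, ROD1, PDAT1 and WRI3, whose lowest library held about 1, 21, 20 and 4 fragments. MYB115 and AAD3 are limited likewise, with about 20 and 5 fragments in their lowest library.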
